A study of Mus musculus with 4 samples.

Results

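Imprinted genes with roles in growth and differentiation, 10 in all, were followed across 4 microarrays of mouse embryonic fibroblasts: H19, Dlk1, Peg3, Mest, Plagl1, Grb10, Ndn, Snrpn, Sgce and Zim1. They were chosen by name, as the non-control probes that carry one of these gene names on the array, which gave 10 of 27576 genes and 19 of 41174 probes. The groups were fibroblasts carrying Oct3/4, Sox2, Klf4 and c-Myc (called four-factor cells) kept for 72 hours at 5% or 21% O2, which the labels also call day 4, and fibroblasts with no transduced gene kept for 10 days at 5% or 21% O2. Each of the 4 conditions had 1 array, so a difference between 2 arrays has no replicate check and no p-value. Total RNA was hybridised in 1 colour (Cy3). Strain, embryo age, vector and the share of cells that took up the factors are not given in the sources used here.

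An imprinted gene is transcribed mainly from 1 parental allele, because DNA methylation laid down in the egg or the sperm marks a control region in its cluster. Paternally expressed genes such as Dlk1, Mest and Peg3 tend to promote fetal growth and maternally expressed genes such as H19 and Grb10 tend to restrain it, with exceptions. Many are abundant in mesenchyme of the embryo and decline after birth. An expression array sums both alleles and reads neither allele nor methylation.

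A pair of members also carry microRNAs, short RNAs that pair with target transcripts through their seed. The arrays did not measure them, and they are shown because they come from the transcripts whose levels are described here: miR-675 lies in H19 (chr7:142577078-142577099 and chr7:142577112-142577133, minus strand) and miR-335 in an intron of Mest (chr6:30741314-30741336 and chr6:30741354-30741375, plus strand). The mature sequences are those of RefSeq on GRCm38.p6, with the seed, bases 2 to 8, in capitals, and the 4 seeds differ from each other.
mmu-miR-675-5p: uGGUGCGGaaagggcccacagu
mmu-miR-675-3p: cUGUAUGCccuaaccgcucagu
mmu-miR-335-5p: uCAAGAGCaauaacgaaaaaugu
mmu-miR-335-3p: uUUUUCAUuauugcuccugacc

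The 250 bases before the annotated start are shown for Plagl1 (chr10:13090582-13090831, plus strand) and Ndn (chr7:62348027-62348276, plus strand). The oxygen differences of these 2 members had opposite signs in the 2 cultures, each beyond 1 SD between spots, a limit set after 2 SD had picked out no member. Those in four-factor cells stayed within 2 SD. Mest and Snrpn also had opposite signs, with differences in four-factor cells within 1 SD, and are not shown. The windows come from RefSeq on GRCm38.p6, in which 8 of the 10 members were matched. Capitals mark ACGTG, 1 form of the core bound by hypoxia-inducible factors, read on either strand. The other form, GCGTG, was not marked or counted, and both windows hold it on at least 1 strand. In Plagl1 the letters CACGTG hold ACGTG on both strands, as 2 overlapping matches, and the Ndn window holds no ACGTG. The windows thus do not differ in whether they hold the core in either form.
Plagl1: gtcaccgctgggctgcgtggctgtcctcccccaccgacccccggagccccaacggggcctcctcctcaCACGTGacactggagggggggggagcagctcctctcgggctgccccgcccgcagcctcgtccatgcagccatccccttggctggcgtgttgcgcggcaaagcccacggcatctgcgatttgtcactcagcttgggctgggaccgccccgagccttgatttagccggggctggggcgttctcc
Ndn: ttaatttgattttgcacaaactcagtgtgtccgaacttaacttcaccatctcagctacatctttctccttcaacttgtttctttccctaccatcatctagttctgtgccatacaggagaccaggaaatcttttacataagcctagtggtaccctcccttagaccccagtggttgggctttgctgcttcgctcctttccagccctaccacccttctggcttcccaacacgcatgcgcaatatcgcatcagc

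The 8 members had 14 windows, of which 2 held ACGTG, 1 of Plagl1 and 1 of Dlk1 (1 match). Of all 32851 windows of this length, 16.6% held it. A match is a description of the letters and not evidence of binding.

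Levels are log2 signals relative to the 75th percentile of the array, so 0 is the signal of the probe at that percentile, and a level can be compared between arrays but not between probes. A gene is given by its brightest probe. A difference of 1 is 2-fold, and genes were counted from 2-fold upwards where both arrays were well above background, the call of the extraction software. Of the member probes, 17 of 19 were well above background on all 4 arrays. Of all probes, 68.4% and 68.1% were well above background on the four-factor arrays at 5% and 21% O2, and 58.3% and 57.1% on the untransduced arrays. These are shares on single arrays and not on all 4, so they are no counterpart of the member count. The standard deviation between replicate spots of 1 array was 0.059 to 0.0951, which gives 0.086 to 0.131 for a difference between 2 arrays. This measures how well a spot repeats, and no condition was repeated. The arrays of each culture shared 1 slide, so transduction, time in culture and slide cannot be told apart. At each oxygen level, 2 of the 4 transduced genes were 2-fold or more higher in four-factor cells, and the other 2 were lower by as much.

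**Figure D1:**
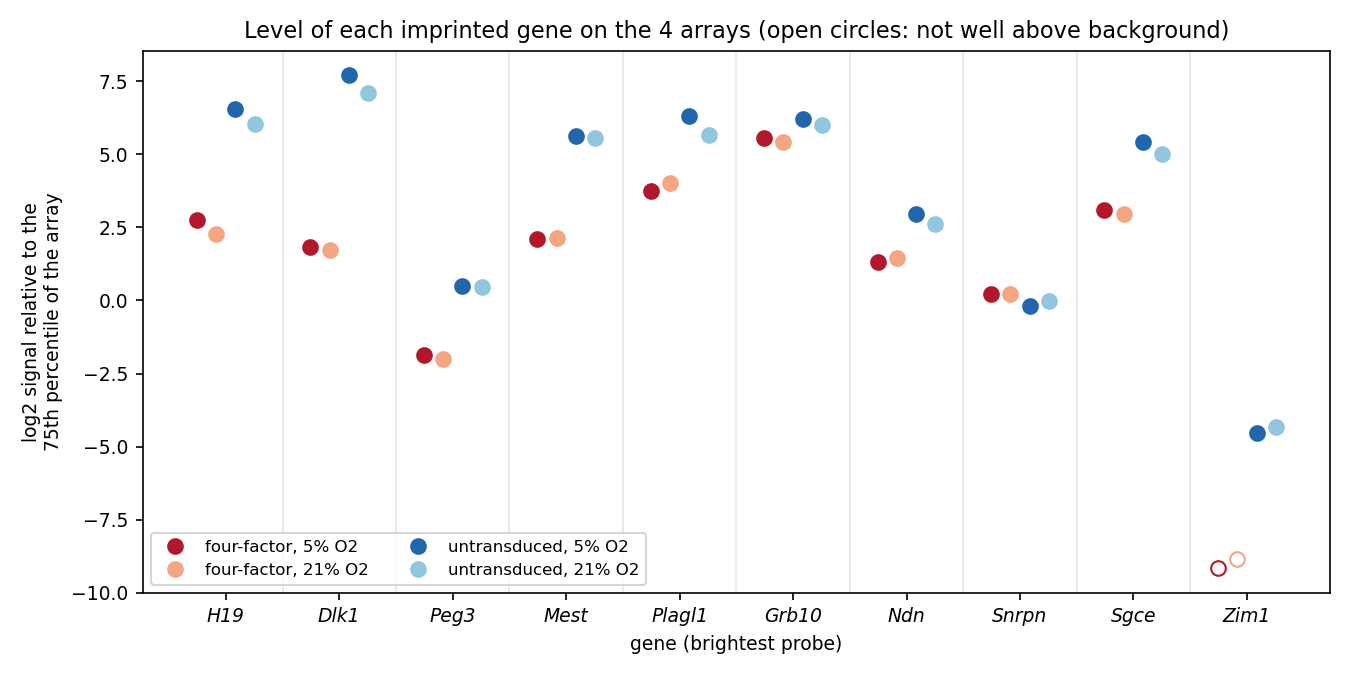
The vertical axis gives the log2 signal of each member's brightest probe relative to the array's 75th percentile, with 1 point per array. Four-factor cells (red) lie below untransduced fibroblasts (blue) for every member except Snrpn, and the open circles of Zim1 are signals too dim to count as measured.

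The first question was how the imprinted genes differ between four-factor cells and untransduced fibroblasts. Of the 9 members with a signal on both arrays, 7 were 2-fold or more lower in four-factor cells at 5% O2, and 7 of 9 at 21% O2, beside 20.0% and 16.6% of all measured genes. The members were picked with earlier results of these data known, so these counts describe them and are no test of imprinted genes as a class. By any amount, 8 of 9 were lower and 1 higher at each oxygen level, beside 50.7% lower and 49.3% higher of all genes at 5% O2, and 51.0% lower and 49.0% higher at 21% O2. Zim1 was lower by a bound at both oxygen levels. Grb10 was lower by under 2-fold and Snrpn was higher by under 2-fold. The median difference of the members was -2.37 at 5% O2 and -2.03 at 21% O2, beside -0.016 and -0.020 for all genes. In bulk RNA, fewer cells that express a gene and less RNA per cell cannot be told apart.

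Dlk1, a paternally expressed transmembrane protein with EGF-like repeats that restrains adipocyte differentiation, had the widest range of the members. Its levels were 1.84 at 5% and 1.72 at 21% O2 in four-factor cells, against 7.70 at 5% and 7.10 at 21% O2 in untransduced fibroblasts (chr12:109908264-109908323 in build mm8, as for all probe positions here). The Dlk1 levels of the 2 cultures did not overlap, but the 2 arrays of a culture differed in oxygen and were not replicates. The share of all genes that separate the cultures in this way is not given here, so the lack of overlap does not set Dlk1 apart. Four-factor cells were 58.2-fold lower at 5% O2 and 41.7-fold lower at 21% O2, and it ranked 46 from the lowest of 15438 genes at 5% and 37 of 15208 at 21% O2. A second probe (chr12:109908025-109908084) differed by more, with -7.24 at 5% and -6.05 at 21% O2.

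H19, a maternally expressed noncoding RNA that restrains growth, came next. Its levels were 2.75 at 5% and 2.27 at 21% O2 in four-factor cells, against 6.56 and 6.04 in untransduced fibroblasts at the same oxygen levels (chr7:142385254-142385313). Four-factor cells were 14.0-fold lower at 5% O2 and 13.6-fold lower at 21% O2. The second H19 probe (chr7:142385503-142385650) gave differences of -4.08 and -4.00, so the probes went the same way.

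Mest, a paternally expressed gene for a protein related to hydrolases whose loss restricts fetal growth, had 1 probe (chr6:30698289-30698348). Its levels were 2.09 at 5% and 2.15 at 21% O2 in four-factor cells, against 5.64 and 5.56 in untransduced fibroblasts. The 2 arrays of each culture were close to each other, and four-factor cells were 11.7-fold lower at 5% and 10.6-fold lower at 21% O2.

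Among the zinc finger genes, Plagl1 encodes a paternally expressed transcription factor that restrains proliferation and acts on other imprinted genes. Its levels were 3.76 at 5% and 4.01 at 21% O2 in four-factor cells, against 6.32 and 5.67 in untransduced fibroblasts (chr10:12821672-12821731). It was 5.89-fold lower in four-factor cells at 5% O2 and 3.14-fold lower at 21% O2, and its second probe (chr10:12819862-12819921) gave -3.01 and -2.01. The gap between the cultures was thus wider at 5% O2 on both probes.

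Peg3, a paternally expressed zinc finger protein with roles in growth and maternal behaviour, had levels of -1.87 at 5% and -1.99 at 21% O2 in four-factor cells, against 0.51 and 0.46 in untransduced fibroblasts (chr7:6311815-6311874). That is 5.18-fold and 5.49-fold lower in four-factor cells. A second probe (chr7:6310149-6310208) gave -1.86 at 5% and -1.28 at 21% O2. Another, placed on a clone (chr7:6326319-6326377), was not well above background on any array.

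Zim1, a maternally expressed zinc finger gene beside Peg3, was well above background only in untransduced fibroblasts, at -4.53 at 5% and -4.32 at 21% O2 (chr7:6280569-6280628). It was at least 5.15-fold lower in four-factor cells at 5% O2 and at least 5.76-fold lower at 21% O2. Each bound divides the bright array's signal by the dim probe's signal or, if that is smaller, by the weakest signal that still counted as well above background there.

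Sgce, a paternally expressed gene for epsilon-sarcoglycan, a membrane protein of the dystrophin complex, had levels of 3.1 at 5% and 2.96 at 21% O2 in four-factor cells, against 5.43 and 5.00 in untransduced fibroblasts (chr6:4624457-4624516). It was 5.05-fold and 4.09-fold lower in four-factor cells, and its second probe (chr6:4641640-4644080) gave -2.31 and -1.94. The 2 probes differed by little.

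Ndn encodes necdin, a paternally expressed MAGE family protein that restrains proliferation. Its levels were 1.30 at 5% and 1.46 at 21% O2 in four-factor cells, against 2.97 and 2.62 in untransduced fibroblasts (chr7:62227911-62227970). It was 3.19-fold lower in four-factor cells at 5% and 2.24-fold lower at 21% O2, the smallest of the differences past 2-fold. Scaled on the spike-in controls, the difference at 21% O2 was -0.76, under 2-fold.

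Grb10, an adaptor that dampens insulin and IGF1 receptor signalling and is maternally expressed outside neurons, had levels of 5.57 at 5% and 5.41 at 21% O2 in four-factor cells, against 6.22 and 5.99 in untransduced fibroblasts (chr11:11830965-11831024). The differences of -0.66 and -0.58 were several times the spot error and under 2-fold. A second probe (chr11:11870574-11870633) gave -1.11 and -0.83 and the third (chr11:11833580-11834228) -0.74 and -0.63. With spike-in scaling the difference of the brightest probe was -0.03 at 5% and -0.17 at 21% O2.

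Snrpn, a paternally expressed gene for the spliceosomal protein SmN, was the member that was higher in four-factor cells. Its levels were 0.23 at 5% and 0.21 at 21% O2 in four-factor cells, against -0.19 and -0.01 in untransduced fibroblasts (chr7:59866394-59866453). The differences were 0.42 and 0.21, and 0.93 and 0.59 on a second probe (chr7:59866411-59866470) that shares 43 bases with the first. With spike-in scaling the difference at 5% O2 was 1.04, past 2-fold.

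**Figure D2:**
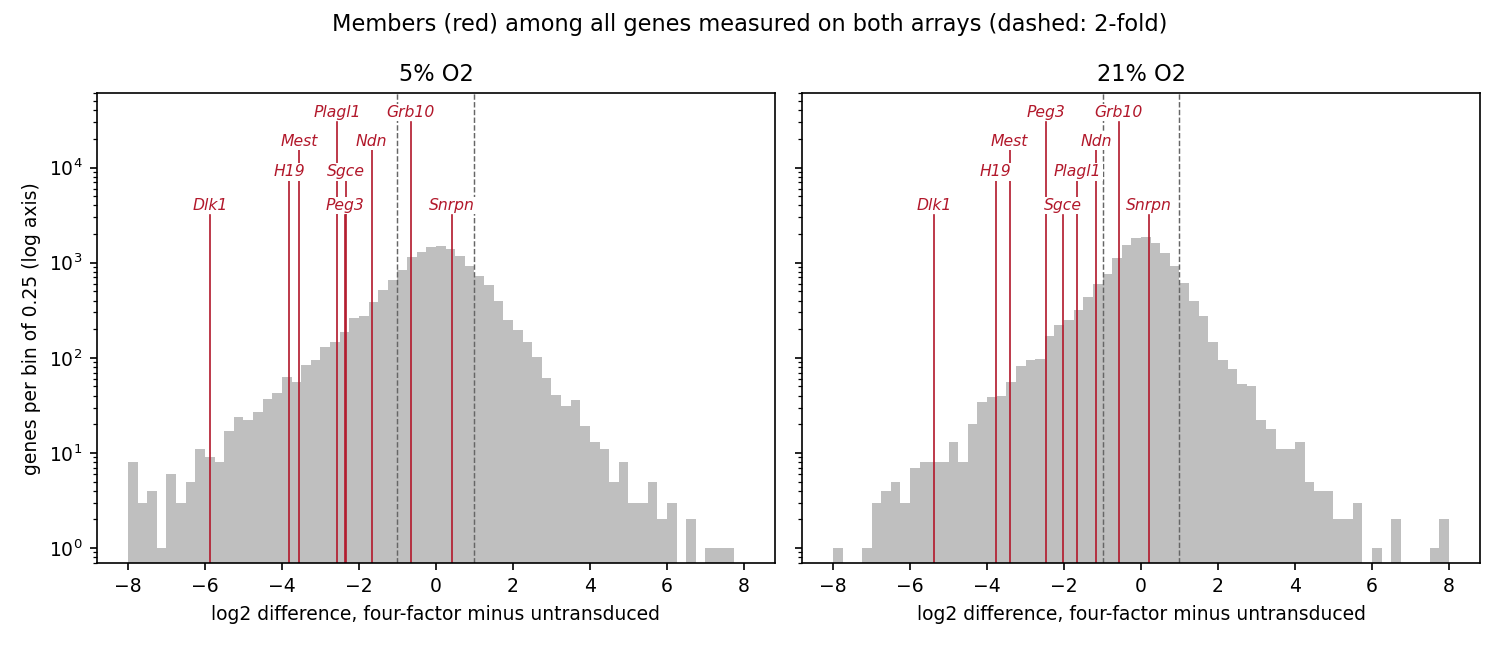
Grey bars count all genes by their log2 difference, four-factor minus untransduced, at 5% O2 (left) and 21% O2 (right), on a log axis and with differences beyond 8 in the end bins. Red lines mark the 9 members measured on both arrays, 7 of which lie left of the 2-fold line in each panel.

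The 4 arrays were also fitted together in limma, with culture and oxygen as additive terms, over 18263 genes. Its error comes from how far the oxygen effects of the cultures differ, with 1 residual degree of freedom, moderated over genes. Its culture term was negative with an adjusted p (Benjamini-Hochberg over all genes) under 0.05 for 8 of the 9 members well above background on all 4 arrays, beside 22.8% of all genes. The culture term was positive at that threshold for 27.3% of all genes, and 59.1% had an unadjusted p under 0.05, so passing it sets few genes apart. It gave Dlk1 -5.62 (SE 0.20, limma adjusted p = 0.00301), H19 -3.79 (SE 0.16, limma adjusted p = 0.00301) and Mest -3.48 (SE 0.16, limma adjusted p = 0.00314). Ndn had -1.42 (SE 0.21, limma adjusted p = 0.0128) and Grb10 -0.62 (SE 0.16, limma adjusted p = 0.0434). The Snrpn term of 0.31 (SE 0.17, limma adjusted p = 0.193) did not pass. Zim1 is left out of that count, since it entered the fit through the untransduced arrays alone. The Grb10 call was lost with median scaling (limma adjusted p = 0.0842), with spike-in scaling (limma adjusted p = 0.76) and with genes well above background on any array (limma adjusted p = 0.0629).

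By parental class, 6 of the 7 paternally expressed members were at least 2-fold lower in four-factor cells at each oxygen level, beside 20.0% and 16.6% of all measured genes. Of the maternally expressed members, H19 was at least 2-fold lower and Grb10 was lower by under 2-fold. Zim1, the other, was well above background only in untransduced fibroblasts, so it could count only as lower or not at all. The difference between the classes was not tested.

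Spike-in scaling moved the median of all genes by 0.622 at 5% and 0.402 at 21% O2, and scaling on the array median by 0.171 and 0.15. On the spike-in scale 7 members were at least 2-fold lower at 5% O2 and 6 at 21% O2. The share of all genes on that scale is not given here, and the 20.0% and 16.6% above belong to the main scaling.

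The other imprinted genes came from a list of 62, of which 56 were on the array. At 5% O2, 7 of 44 measured genes were at least 2-fold higher in four-factor cells (15.9%) and 12 at least 2-fold lower (27.3%), beside 17.1% and 20.0% of all genes. At 21% O2, 5 of 42 were higher (11.9%) and 11 lower (26.2%), beside 11.8% and 16.6% of all genes. Their median was -0.11 at 5% and -0.33 at 21% O2. Scaled on the spike-ins, 13 of these genes passed 2-fold upwards and 8 downwards at 5% O2, so the split between the directions depends on the scaling. The shares of the members and of this list are set side by side as counts, and their difference was not tested.

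In the Dlk1-Dio3 cluster, 5 of 5 measured genes were at least 2-fold lower in four-factor cells at both oxygen levels. Meg3, the maternally expressed noncoding RNA of that cluster (named Gtl2 on the array), had levels of 3.60 at 5% and 3.95 at 21% O2 in four-factor cells, against 7.30 and 6.71 in untransduced fibroblasts. Its 4 probes differed by -4.24 to -3.21 at 5% O2. The noncoding RNAs Rian and Mirg, read from the same strand, differed by -3.40 and -4.14 at 5% O2 and by -2.96 and -3.41 at 21% O2. Dio3, which inactivates thyroid hormone, differed by -2.50 and -3.78. Genes read from both parental alleles of the cluster thus had lower signals in four-factor cells.

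In the H19-Igf2 and Cdkn1c region, 5 of 11 measured genes were at least 2-fold lower and 1 higher at 5% O2. Igf2, the paternally expressed fetal growth factor that shares enhancers with H19, had levels of 4.44 at 5% and 4.96 at 21% O2 in four-factor cells, against 7.17 and 6.94 in untransduced fibroblasts. Cdkn1c, a maternally expressed inhibitor of cyclin-dependent kinases, had levels of 1.41 and 1.06 in four-factor cells, against 6.52 and 5.01 in untransduced fibroblasts. Both genes were lower in four-factor cells whichever parental allele is read. Phlda2, a maternally expressed growth restrainer of the placenta, was higher by 2.72 at 5% O2. Igf2r, the receptor that clears IGF2, lies in another cluster and differed by -1.49 and -1.41.

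Neighbours did not always go with the member. Beside Grb10, which was lower by under 2-fold, Cobl and Ddc were higher in four-factor cells, by 2.72 and 1.29 at 5% O2 and by 2.91 and 1.53 at 21% O2. Beside Ndn, Peg12 was higher by 2.06 and 1.28. Beside Sgce, Ppp1r9a was higher by 1.25 and 1.78, on its brightest probe. Its other probes were dim in untransduced fibroblasts, and 1 of them was higher by at least 0.31 at 5% O2. Outside the clusters of the members, the imprinted amino acid transporter Slc38a4 was also higher, by 1.55 and 1.10. Copg2, beside Mest, differed by 0.29 and 0.17, and Usp29, beside Peg3, by -0.10 and 0.41.

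**Figure D3:**
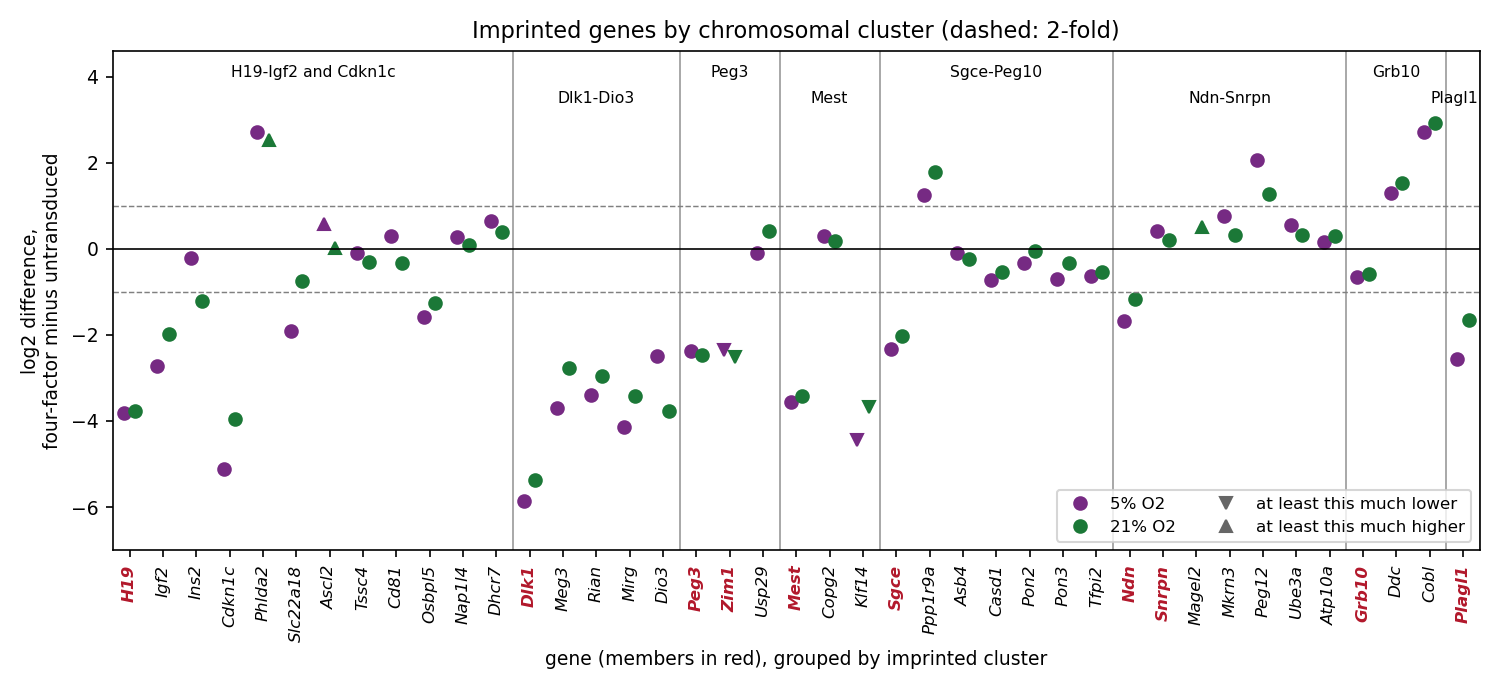
The vertical axis gives the log2 difference, four-factor minus untransduced, of each imprinted gene on the array with a value, grouped by cluster, at 5% O2 (purple) and 21% O2 (green). Triangles are bounds. The 5 genes of the Dlk1-Dio3 cluster lie below the 2-fold line at both oxygen levels, while Cobl and Ddc lie above it beside Grb10.

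Of 16 genes that keep or remove imprints, 15 were measured. At 5% O2, 3 were at least 2-fold higher in four-factor cells and 1 lower, and at 21% O2, 2 were higher. These shares (20.0% and 13.3% higher) were near those of all genes (17.1% and 11.8%). Uhrf1, which brings the maintenance methyltransferase to replicating DNA, was higher by 2.59 at 5% and 1.52 at 21% O2. Dnmt1, that methyltransferase, was higher by 1.52 and 0.72, and Dnmt3b, a de novo methyltransferase, by 1.58 and 1.52. Dnmt3a differed by -1.13 and -0.79 on its brightest probe, and its 3 probes ranged from -1.74 to -0.17 at 5% O2. In the limma model 4 of these 15 genes were higher and 1 lower at an adjusted p under 0.05, beside 27.3% higher and 22.8% lower of all genes.

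Markers of several cell types, fibroblasts included, moved with these differences. All 15 fibroblast markers were well above background on every array, and 11 of 15 were at least 2-fold lower in four-factor cells at 5% O2 and 9 of 15 at 21% O2, with medians of -1.75 and -1.67. Their summed signal, in multiples of the 75th percentile, was 792 and 912 in four-factor cells at 5% and 21% O2, against 1290 and 1400 in untransduced fibroblasts. Of 12 macrophage markers, 5 were well above background on each four-factor array and 12 on each untransduced array, with sums of 0.562 and 0.709 in four-factor cells, against 6.95 and 2.63 in untransduced fibroblasts. The sum of the 10 adipocyte markers was 2.43 and 2.34 in four-factor cells, against 89.8 and 40.1 in untransduced fibroblasts. Lpl made up most of it. The defining Adipoq and Plin1 were well above background only in untransduced fibroblasts at 5% O2, Cfd, Lep and Cidec on no array, and Cd36 differed by 0.16 at 5% O2. Of 11 pluripotency markers, the four-factor arrays measured 9 at 5% and 7 at 21% O2, against 2 and 3 on the untransduced arrays. These counts rest on unlike limits, as the weakest signal well above background was 9.64 and 9.86 on the four-factor arrays, against 24.87 and 26.51 on the untransduced arrays. Their summed signal was 1.74 and 1.30 in four-factor cells, against 1.49 and 1.30 in untransduced fibroblasts. The brightest of the list was Pou5f1 (Oct3/4), itself a transduced gene, on both four-factor arrays, and Dppa5a on both untransduced arrays. Nanog was measured on 1 array, that of four-factor cells at 5% O2, and Esrrb and Lin28a on none. The part of these markers in the lower imprinted genes was not tested.

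The second question was whether the imprinted genes differ with oxygen within a culture. No member reached 2-fold in either culture. In four-factor cells, 6 of 9 measured members were higher at 5% O2 and 3 lower, with a median of 0.11, where 48.1% of all genes were higher and 51.9% lower by any amount, and 1.26% were higher and 1.07% lower by 2-fold or more. In untransduced fibroblasts, 8 of 10 were higher and 2 lower, with a median of 0.29, where 44.8% of all genes were higher and 55.2% lower by any amount, and 2.54% were higher and 1.73% lower by 2-fold or more. Hypoxia-response genes differed on the same arrays, with 12 of 12 higher at 5% O2 in both cultures and medians of 2.50 and 1.31.

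H19 was the member with the largest difference in four-factor cells, and it was nearly equal in both cultures. Per culture, its signal at 5% O2 was 1.40-fold that at 21% O2 in four-factor cells and 1.44-fold in untransduced fibroblasts, and the second probe gave 0.49 and 0.57 on the log2 scale. Its oxygen term was 0.50 (SE 0.16, limma adjusted p = 0.625), and its unadjusted p was under 0.05. No member had an oxygen term past the threshold, and nor did any of the 18263 genes in limma, in which 1399 had an unadjusted p under 0.05 (7.66%).

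Dlk1 was higher at 5% O2 by 0.11 in four-factor cells, within the spot error, and by 0.59 in untransduced fibroblasts. The second Dlk1 probe gave 0.13 and 1.32, so the probes differ on whether the untransduced fibroblasts pass 2-fold, and the mean of both was 0.96. Sgce was higher by 0.13 and 0.44, with 0.12 and 0.48 on its second probe. Grb10 was higher by 0.16 in four-factor cells, and by 0.24 in untransduced fibroblasts, and its other probes by 0.16 in four-factor cells and by 0.26 and 0.44 in untransduced fibroblasts.

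Plagl1 and Ndn had opposite signs in the 2 cultures, with four-factor values that exceeded 1 SD between spots (0.131) but not 2 SD (0.261). The share of all genes that do so is not given here. Plagl1 differed by -0.25 in four-factor cells and by 0.65 among untransduced fibroblasts, and by -0.24 and 0.77 on its second probe. Ndn, with 1 probe, differed by -0.16 and 0.35. The difference between the cultures was -0.91 for Plagl1 and -0.51 for Ndn, and it has no test.

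The remaining members were near 0. Mest differed by -0.06 in four-factor cells, against 0.08 in untransduced fibroblasts, Snrpn by 0.02 and -0.18, and Peg3 by 0.13 and 0.04. The second Peg3 probe gave -0.40 and 0.18, against the first in four-factor cells. On the spike-in scale the sign turned for Mest in four-factor cells, to 0.09, and for Peg3 in untransduced fibroblasts, to -0.03. Zim1, measured in untransduced fibroblasts alone, differed by -0.21.

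Of 47 other imprinted genes measured in four-factor cells, Ins2 was the 1 gene past 2-fold (2.1%), at 1.01. Of all genes, 1.26% were higher and 1.07% lower by 2-fold or more. Ins2 had low levels there, -4.98 at 5% and -5.99 at 21% O2. Its second probe gave 0.50, and with normexp or the mean over probes no gene of the list was past 2-fold upwards. In untransduced fibroblasts Cdkn1c was higher at 5% O2 by 1.5 and Dio3 differed by -1.29. Each was 1 of 43 measured genes (2.3%), beside 2.54% higher and 1.73% lower of all genes. Igf2 differed by -0.52 in four-factor cells, against 0.23 in untransduced fibroblasts, and its second probe by -0.57 and 0.48. In untransduced fibroblasts all 12 macrophage markers were higher at 5% O2, 11 of them at least 2-fold, and the adipocyte sum was higher as given above. Their part in the higher signals of Dlk1, Plagl1, Ndn and Cdkn1c was not tested.

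**Figure D4:**
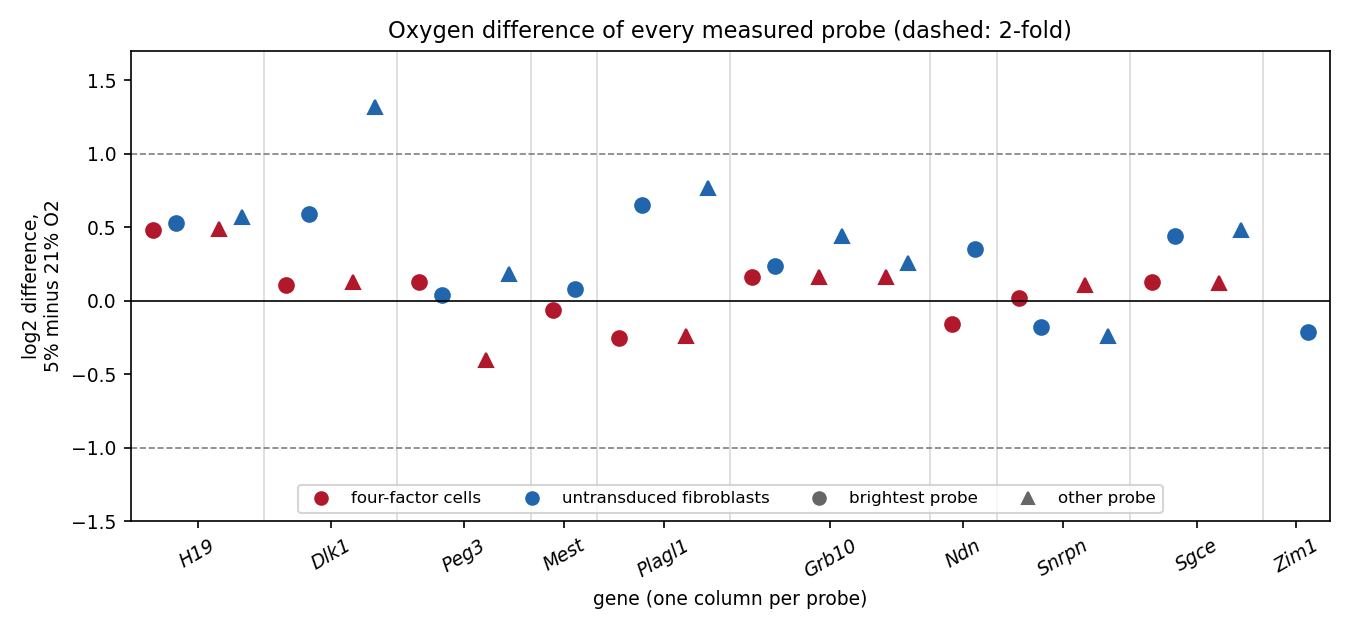
The vertical axis gives the log2 difference, 5% minus 21% O2, of every measured member probe, in four-factor cells (red) and untransduced fibroblasts (blue), with circles for the brightest probe of a gene and triangles for its other probes. One point, the second Dlk1 probe in untransduced fibroblasts at 1.32, lies past the 2-fold line.

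The order of the 4 levels is listed for each member. The share of all genes with each order is not given here, and the split between the cultures repeats the comparison above. From highest to lowest, H19, Dlk1, Peg3, Grb10 and Sgce ran untransduced at 5%, untransduced at 21%, four-factor at 5% and four-factor at 21% O2. Mest, Plagl1 and Ndn had the same order with the four-factor arrays exchanged, and Zim1 ran from untransduced at 21% O2 downwards. Snrpn ran from four-factor at 5% O2 down to untransduced at 5% O2. The 2 four-factor arrays did not differ beyond the spot error for Dlk1, Peg3, Mest, Snrpn and Sgce, nor the 2 untransduced arrays for Peg3 and Mest.

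Among 14917 genes measured on all 4 arrays, the nearest patterns to the 3 members with the widest range were found by Euclidean distance between values centred on each gene's mean. For Dlk1 (range 5.98) they were Ccn3 at 0.06, Cpxm2 at 0.18 and Casp9 at 0.22. For H19 (range 4.29) they were Myo7a at 0.10, Fzd4 at 0.11 and Nxnl2 at 0.20, and for Mest (range 3.55) Podxl2 at 0.15, Trib3 at 0.16 and Adamts5 at 0.18. With 4 points that share their arrays, such likeness is a description.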

How the data were processed

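Per the file headers, arrays of Agilent design 014868 (positions on build mm8) were read by Feature Extraction 9.5.3.1 under its protocol GE1-v5_95_Feb07. Its processed signal is, per the file headers, an intensity from which background and spatial trend were removed, with no step across arrays. The deposited value table holds log2 values from software that no source used here names, and it matched the values computed here within 0.001 for 99.8% to 99.9% of probes (column medians -3.86 to -3.69).

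From the processed signals, outlier spots were dropped, replicate spots averaged, and log2 values taken relative to each array's 75th percentile. A gene was its brightest probe. Symbols were updated through a GRCm38.p6 gene table, which held 33102 of 41174 probes' names. Exon and UTR positions of probes were not used here, as no mm8 annotation was. The 4 differences were computed, 5% minus 21% O2 per culture and four-factor minus untransduced per oxygen level. The additive model (limma 3.58.1, R 4.3.3, lmFit and eBayes, Benjamini-Hochberg) used genes measured well above background on 2 or more arrays. A run on simulated data required its mean estimates to lie near the known effects. There the noise was independent between arrays and few genes were changed, so that run is no check on the p-values given here. Python 3.11.15, numpy 2.4.6, pandas 2.3.3 and matplotlib 3.10.9 did the rest.

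The members and lists were chosen with earlier results of these data known. Genes were named by rule: all members and their probes; up to 4 other imprinted or imprint maintenance genes per direction and comparison among those past 2-fold; Igf2, Igf2r, Cdkn1c and Meg3; the 3 nearest patterns of 3 members; and defining markers of cell type lists that moved. Copg2 and Usp29 were named after their values were seen. Alternatives were normexp background correction (offset 50), other scalings, the deposited table, other filters, the mean over probes and robust moderation.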

Additional observations from a re-analysis of the deposited data

Results flagged for a closer look

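Plagl1 and Ndn drew attention because their oxygen differences ran in opposite directions in the 2 cultures, each beyond 1 SD of a difference between replicate spots (0.131 for the four-factor arrays, 0.086 for the untransduced ones). That limit was lowered to 1 SD after 2 SD had been tried and picked out no member: the four-factor values stay within 2 SD (0.261). The share of all genes with opposite signs beyond 1 SD is not given here, so the limit does not set these 2 members apart. For Plagl1, 5% minus 21% O2 was -0.25 in four-factor cells, against 0.65 in untransduced fibroblasts. For Ndn it was -0.16 in four-factor cells, against 0.35 in untransduced fibroblasts. With 1 array per condition the difference between the cultures was not tested. With spike-in scaling the values in four-factor cells were -0.10 for Plagl1 and -0.01 for Ndn, within the spot error of 0.131. No group held enough arrays to look for an outlying sample.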

How the results depend on the processing

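For each difference 9 alternatives were run, and 11 for each term of the model. The changes of filter leave the difference of a measured member as it was, and the deposited table nearly repeats the main values. The mean over probes cannot move a member with 1 probe. Such settings are no check on the size of a member difference. Of the 7 members past 2-fold at each oxygen level in the four-factor comparisons, 6 stayed past it under all 9, and Ndn at 21% O2 did not, with -0.76 under spike-in scaling. Spike-in scaling put 1 member at least 2-fold higher at 5% O2 (Snrpn, 1.04), and in the culture term it put 1 member past the threshold upwards (Snrpn, 0.83, limma adjusted p = 0.00922). For the other imprinted genes it gave 13 at least 2-fold higher at 5% O2 and 7 lower at 21% O2. Without a filter on dim probes 21 were lower at each oxygen level. There, signals under each array's weakest signal well above background were raised to that floor. The floor was 9.64 and 9.86 on the four-factor arrays at 5% and 21% O2, against 24.87 and 26.51 on the untransduced arrays. A gene under both floors thus counts as at least 2-fold lower by construction. For oxygen in four-factor cells, their count of genes past 2-fold was 0 upwards with normexp and with the mean over probes, and in untransduced fibroblasts the mean over probes gave 2 upwards. The oxygen term called 168 genes with normexp, 572 with spike-in scaling and 820 with no filter on dim probes, and no member in any of these. The culture term called 20529 genes with no filter, against 9134. That setting tests more genes, and genes under the floors on all arrays carry the same fixed gap between the cultures. The sign of the oxygen term turned for Peg3 with the mean over probes (-0.01 against 0.08) and for Mest with normexp (-0.01 against 0.01), both with values near 0. Of 332 member differences under alternatives, 249 moved by less than the spot error and 83 by more. The 249 include the settings named above that could not move a value, so the count overstates stability. Apart from the filter, the causes of these changes were not tested. No paired analysis was possible because each condition had 1 array and the labels carry no replicate numbers, and the model without an array would have no residual degrees of freedom. The number of arrays limits every value, and Zim1, near background, has only bounds in four-factor cells.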
